A study of Mus musculus with 12 samples.

Results

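The aminoacyl-tRNA synthetase genes were followed across 12 libraries of mouse 3T3-L1 adipocytes, a differentiated preadipocyte line. They were taken by gene symbol from a table of read counts over transcript 3′ UTRs, and all 36 listed symbols were found, each in a single row, among 20586 rows. The 36 comprise 20 genes for cytosolic enzymes and 16 for mitochondrial enzymes, including Lars2. Because Lars2 alone took up 4.60% to 63.9% of a library, it is described apart and every library total used for the other genes leaves it out.

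The groups were CPEB4 IP (RNA precipitated with an antibody to CPEB4), IgG IP (RNA precipitated with a control immunoglobulin) and Input (RNA of the lysate), with 4 libraries each. Every group came from 3T3-L1 cells taken to day 8 of adipogenic differentiation and then exposed for 24 h to 500 µM free fatty acids (palmitic acid at 300 µM, with oleic and linoleic acid at 100 µM each). Induction lasted until day 2 with rosiglitazone (2 µM), insulin (10 µg/mL), dexamethasone (1 µM) and IBMX (0.5 mM), and insulin alone followed. No group lacked fatty acids or CPEB4, Input alone was selected for poly(A), and libraries had 12 or 18 PCR cycles, which the labels do not assign. Precipitation and poly(A) selection therefore cannot be told apart in any comparison with Input. The series asks which mRNAs CPEB4 binds, through the contrast of both precipitates and Input.

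Aminoacyl-tRNA synthetases join each amino acid to its tRNA and so supply the ribosome. The cytosol and the mitochondrion mostly use separate enzymes, all encoded in the nucleus, while Gars and Kars each serve both compartments and are counted with the cytosolic enzymes here. Part of the cytosolic enzymes sit together in the multisynthetase complex, and many cytosolic synthetase genes are targets of ATF4, the transcription factor of the amino acid response. CPEB4 recognises U-rich cytoplasmic polyadenylation elements in the 3′ UTRs of mRNAs, where CPEB proteins can promote or repress tail extension and translation.

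Depth set what could be seen. The CPEB4 IP libraries held 850630 to 1080605 counts outside Lars2, the IgG IP libraries 61916 to 229779 and the Input libraries 791184 to 1451943. A floor of 3 counts in a library was worth 3.44 to 4.23 CPM in CPEB4 IP, 13.0 to 35.0 CPM in IgG IP and 2.15 to 3.29 CPM in Input, where CPM means counts scaled to a total of 1e+06 after TMM scaling, without Lars2. Intervals and floors cover counting error only. Replicates 1 and 2 carry library numbers 726 to 731 and replicates 3 and 4 numbers 393 to 398, and replicates of a group were nearer to each other within these pairs than across them. Nothing in the labels says that replicates were separate cultures, so p-values measure the spread between libraries, which may be technical. All 8 adipocyte markers examined had counts in every group (Adipoq 1253 CPM ± 250 and Fabp4 3736 CPM ± 2650 in Input; SD, n = 4).

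Promoter sequence is shown because it separates the cytosolic genes by a feature that the counts did not use. The letters TGATGNAAN, a form of the C/EBP-ATF response element that ATF4 binds, were searched on both strands from 250 bases before to 50 bases after the gene start in RefSeq promoters (GRCm38.p6), which were found for 26 of the 36 genes. They were present in 5 of 12 cytosolic genes (41.7%), in 0 of 14 mitochondrial genes and in 1215 of 27025 promoters of all genes (4.5%). The windows of Gars, Iars, Tars and Yars below are read 5′ to 3′ on the strand of the match, with the matched letters in capitals.
Gars, chr6:55037960-55037988, minus strand: gcccggtgcaTGATGAAATagcgcagcca
Iars, chr13:49682126-49682154, minus strand: cgtctggaggTGATGCAATactgacagtg
Tars, chr15:11399656-11399684, plus strand: gctaaccagcTGATGCAACgggactcctg
Yars, chr4:129189896-129189924, plus strand: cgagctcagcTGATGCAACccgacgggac
Iars (isoleucine), Tars (threonine) and Yars (tyrosine) encode charging enzymes for the amino acids named. A match is a description of letters and not of binding. No promoter of another gene is printed, and 3′ UTR sequence was not analysed here.

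Lars2 encodes the mitochondrial leucyl-tRNA synthetase, and its 3′ UTR row (mm10 chromosome 9, 123461679 to 123462664, plus strand, 986 bases, with no other row overlapping it) held more counts than any other row in each of the 12 libraries. The counts are reads assigned to this row. Where in the row they lie was not analysed here, so reads of Lars2 mRNA and of any other RNA of like sequence cannot be told apart, which holds for every Lars2 value below. In CPEB4 IP the Lars2 row held 7.26%, 4.60%, 17.7% and 23.7% of all counts in replicates 1 to 4. In IgG IP it held 28.6%, 29.7%, 63.9% and 63.1%, and in Input 12.2%, 14.1%, 7.79% and 7.99%. Every IgG IP library lay above every library of the other groups, while CPEB4 IP and Input overlapped.

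The ratio of its counts to those of the next row ran from 2.09 in Input replicate 4, where the next was the ferritin heavy chain gene Fth1, to 111 in IgG IP replicate 3, where it was Sh3pxd2a. Against the summed counts of the other 35 synthetase genes, Lars2 had 86.9 to 443 times as many in CPEB4 IP, 343 to 1440 times in IgG IP and 22.9 to 37.4 times in Input.

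The mean share of Lars2 was 13.3% ± 8.94 in CPEB4 IP and 46.3% ± 19.9 in IgG IP (SD, n = 4 each), a difference of -33.0 percentage points (exact two-sided permutation test, p = 0.0286, the smallest that 4 against 4 libraries allow; 0.0429 adjusted over 3 comparisons). Input had 10.5% ± 3.13 (SD, n = 4). CPEB4 IP was above it by 2.79 points (exact permutation p = 0.571, adjusted 0.571) and IgG IP by 35.8 points (exact permutation p = 0.0286, adjusted 0.0429). These tests leave the replicate numbers aside. With exchange only within the 4 replicate numbers, added after the data were seen, neither call held: the exact permutation p was 0.125 for both (adjusted 0.188), the smallest that 4 pairs allow. In 4 of 4 replicates the CPEB4 IP share was below the IgG IP share, and the IgG IP share above that of Input.

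Per scaled count outside Lars2, the log2 fold change of Lars2 in CPEB4 IP over IgG IP was -2.30 (SE 0.67; adjusted p = 0.0553), which missed the threshold of 0.05. It passed with the replicate block (-2.25, adjusted p = 0.0257) and under several other settings, so this call depends on the fit. CPEB4 IP over Input gave 0.67 (SE 0.64, adjusted p = 0.399) and IgG IP over Input rose by 2.97 (SE 0.68, adjusted p = 0.00266). Adjusted p-values of single genes, here and below, were computed by Benjamini-Hochberg over the 9273 tested rows from the quasi-likelihood test of edgeR.

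The Lars2 comparisons with Input differed between the pairs of replicates. In CPEB4 IP over Input, the log2 fold change was -1.47 in replicates 1 and 2 alone (adjusted p = 0.000568) and 1.84 in replicates 3 and 4 alone (adjusted p = 0.0236), opposite in direction. In IgG IP over Input it was 0.78 in replicates 1 and 2 (adjusted p = 0.0244) and 4.27 in replicates 3 and 4 (adjusted p = 0.00997). In CPEB4 IP over IgG IP it was -2.24 in replicates 1 and 2 (adjusted p = 0.00495) and -2.43 in replicates 3 and 4 (adjusted p = 0.372), the same direction in both pairs.

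A fit with a term for group by pair, added after the data were seen, tested the difference itself as replicates 3 and 4 minus replicates 1 and 2. It was 3.01 for CPEB4 IP over Input (adjusted p = 0.0228, against 0.949% of all rows past the threshold) and 3.44 for IgG IP over Input (adjusted p = 0.00619, against 0.237%). For CPEB4 IP over IgG IP it was -0.43 (adjusted p = 1.00), where 0 rows of 9273 passed and Lars2 had an unadjusted p of 0.244. Lars2 was the only synthetase gene past the threshold in this test.

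**Figure D1:**
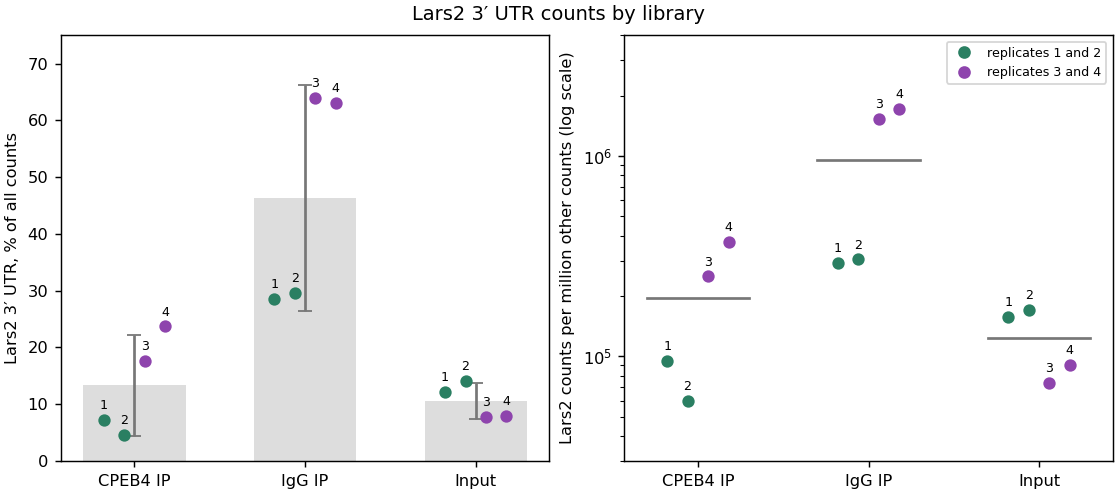
Lars2 by library in CPEB4 IP, IgG IP and Input. The left panel gives its share of all counts in percent (bar, mean; error bar, SD, n = 4) and the right panel its CPM on a log axis (line, mean). Numbers are replicates and colours the pairs of library numbers; IgG IP replicates 3 and 4 stand at 63.9% and 63.1%, and the pairs are ordered oppositely in Input and in the precipitates.

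The rows most like Lars2 over the 12 libraries, by Pearson's r of log2(CPM + 1), were AA474408 (r = 0.95), Htra3 (0.95), Nfic (0.90), Dnajb12 (0.89) and Ccdc97 (0.89). AA474408, an expressed sequence on chromosome 7, had mean levels of 572 CPM (CPEB4 IP), 2566 CPM (IgG IP) and 346 CPM (Input). Lars2 held 219 to 555 counts for each count of AA474408 in all 12 libraries. These correlations describe 12 libraries that share batches and groups, and carry no test.

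After Lars2 was set aside, the remaining 35 genes were a small part of each library. The cytosolic genes together held 0.0438% ± 0.00993 of counts in CPEB4 IP, 0.0942% ± 0.0172 in IgG IP and 0.359% ± 0.0462 in Input (SD, n = 4 each). The 15 mitochondrial genes held 0.0220% ± 0.00223 in CPEB4 IP, 0.0273% ± 0.00329 in IgG IP and 0.0446% ± 0.0116 in Input. The ratio of cytosolic to mitochondrial counts was 1.69 to 2.39 in CPEB4 IP, 3.20 to 3.78 in IgG IP and 5.12 to 12.0 in Input, so the groups did not overlap in it. The Iars2 row overlaps Rab3gap2 on the opposite strand. It does not lie wholly inside the RefSeq span of its own gene, so its counts are uncertain. Iars2 alone held 392 of the 857 mitochondrial counts in CPEB4 IP, 53 of 142 in IgG IP and 258 of 1972 in Input. Without it, a choice made after the data were seen, the ratio was 3.02 to 4.64 in CPEB4 IP, 3.65 to 8.43 in IgG IP and 6.89 to 12.9 in Input, and neighbouring groups overlapped. With Iars2 counted, the mitochondrial genes made up 33.8% ± 3.18 of the synthetase counts in CPEB4 IP, 22.6% ± 1.30 in IgG IP and 11.3% ± 3.84 in Input. The groups are precipitates and Input of the same cell line, and what these differences come from was not tested. Such bulk RNA does not show how an mRNA is spread over the cells.

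**Figure D2:**
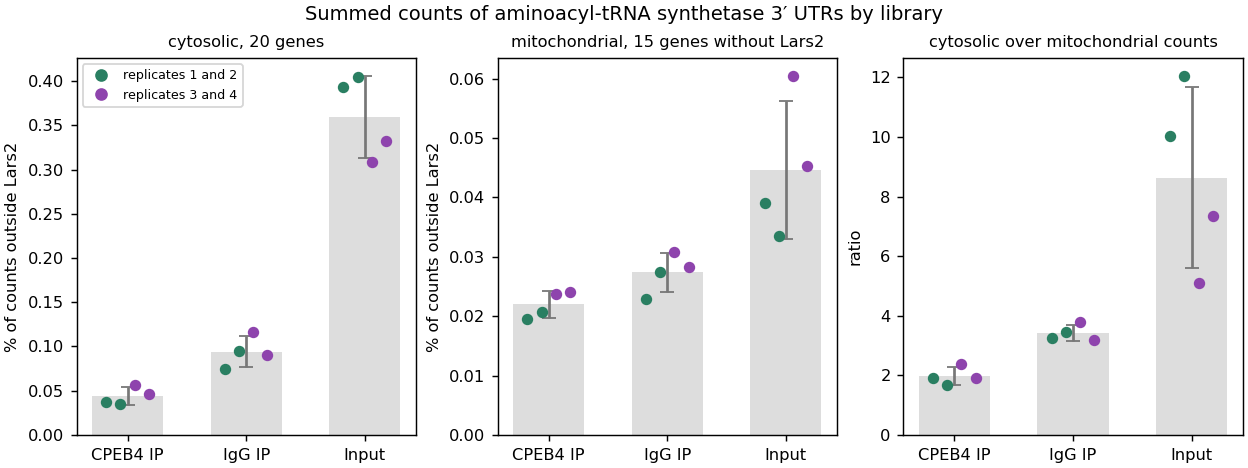
Summed counts of cytosolic (20 genes) and mitochondrial (15 genes, without Lars2) synthetase 3′ UTRs as a percent of counts outside Lars2, and the ratio of the sums, in CPEB4 IP, IgG IP and Input. Bars are means and error bars SD over 4 libraries, shown as points; cytosolic sums average 0.0438%, 0.0942% and 0.359%.

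Input gave the levels of the mRNAs in the lysate. Per kilobase of row, the median cytosolic gene stood at 167 CPM per kb (range 41.1 to 3212) and the median mitochondrial gene other than Lars2 at 27.3 CPM per kb (range 0.707 to 584). The genes given by library below had the most counts per kilobase when the 12 libraries were pooled without scaling: Mars (methionine), Kars (lysine) and Gars (glycine) among the cytosolic genes, and Fars2 (phenylalanine), Rars2 (arginine) and Ears2 (glutamate) among the mitochondrial genes after Lars2. By mean level in Input alone, Hars (1534 CPM per kb) stood above Gars (1500 CPM per kb), and Aars2 (97.6), Cars2 (94.0) and Vars2 (90.4) stood above Ears2 (89.3 CPM per kb). Several of these rows are very short, such as Mars with 73 bases and Rars2 with 97, so a value per kilobase magnifies few counts.

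Mars (chromosome 10, 127296221 to 127296293) had 0, 3, 8 and 5 counts in CPEB4 IP, 1, 1, 6 and 7 in IgG IP and 308, 327, 89 and 331 in Input. Kars (chromosome 8, 111993440 to 111993607) had 3, 3, 6 and 0 counts in CPEB4 IP, 1, 3, 2 and 2 in IgG IP and 452, 519, 232 and 541 in Input. Gars (chromosome 6, 55079346 to 55079504) had 28, 26, 28 and 22 counts in CPEB4 IP, 3, 2, 17 and 5 in IgG IP and 350, 173, 200 and 345 in Input. In CPM, all 3 genes were higher in every Input library than in any precipitate. Of all tested rows, 20.1% had every CPEB4 IP library below every Input library, and 18.3% had every IgG IP library below them. The Mars row overlaps that of Ddit3 on the opposite strand, and whether counting used the strand is not given in the sources used here, so its counts are uncertain.

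Fars2 (chromosome 13, 36537440 to 36537592) had 9, 2, 8 and 3 counts in CPEB4 IP, 2, 0, 0 and 1 in IgG IP and 119, 92, 55 and 137 in Input. Rars2 (chromosome 4, 34660071 to 34660167) had 7, 10, 2 and 4 counts in CPEB4 IP, 0, 0, 1 and 0 in IgG IP and 31, 21, 40 and 14 in Input. Ears2 (chromosome 7, 122038821 to 122039074) had 12, 13, 12 and 8 counts in CPEB4 IP, 0, 0, 2 and 0 in IgG IP and 36, 4, 28 and 33 in Input. In CPM, Fars2 was higher in every Input library than in any precipitate (20.1% of all rows for CPEB4 IP and 18.3% for IgG IP). Ears2 overlapped between CPEB4 IP and Input.

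**Figure D3:**
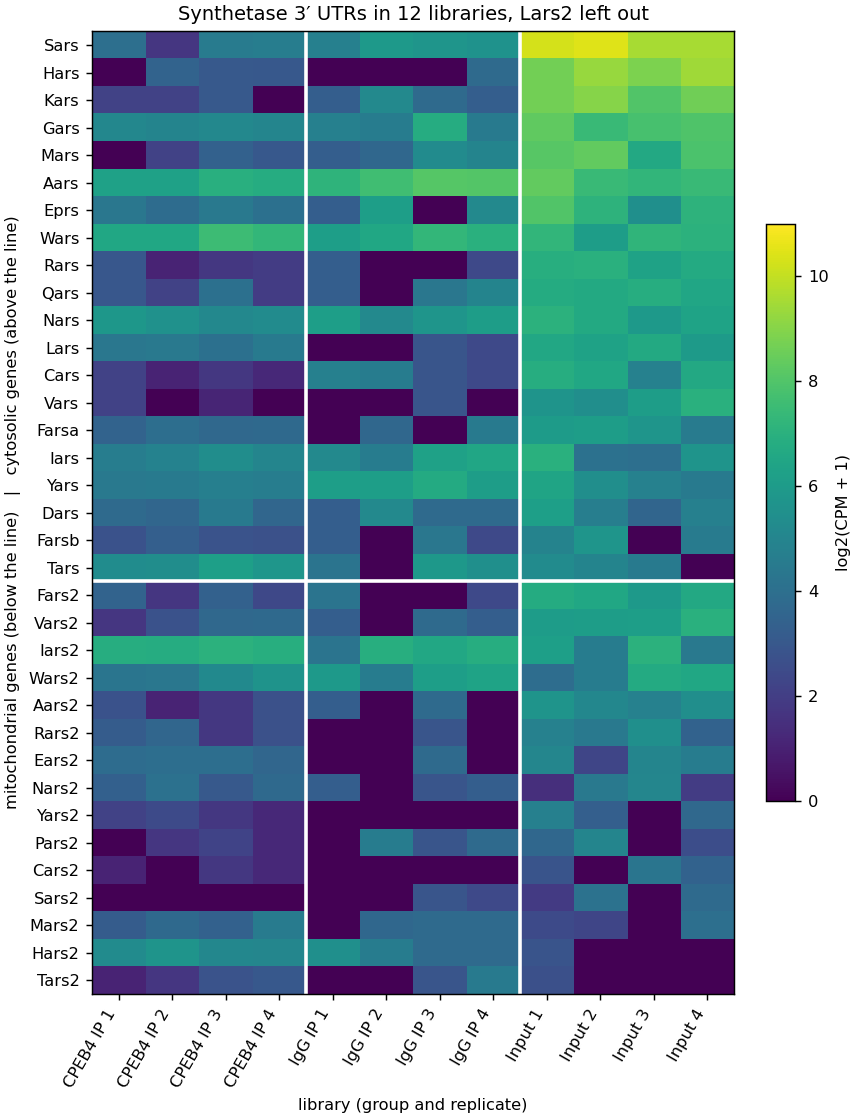
Level of 35 synthetase 3′ UTRs (rows) in the 12 libraries (columns: CPEB4 IP, IgG IP, Input, replicates 1 to 4) as log2(CPM + 1), with cytosolic genes above the white line and mitochondrial genes below it, each sorted by the mean in Input. The cytosolic genes at the top are bright in Input and dark in both precipitates, while Hars2 near the bottom is the reverse.

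In CPEB4 IP over Input, most cytosolic synthetase mRNAs were lower, a comparison in which Input alone was selected for poly(A). Of the 20 cytosolic genes, 14 fell and 0 rose (the 2 others with a positive value, Tars and Wars, did not pass), against 21.6% of all tested rows that fell and 31.6% that rose (53.2% either way). By edgeR's unadjusted p under 0.05 the count was again 14 (58.3% of all rows), and DESeq2's Wald test gave 17 lower and 0 higher (30.1% and 25.7% of all rows). The median log2 fold change of the cytosolic genes was -2.51, against 0.56 for all tested rows. The 4 CPEB4 IP libraries lay below the 4 Input libraries for 14 cytosolic genes and above them for 1 (20.1% and 35.2% of all rows).

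The largest falls were in the enzymes for lysine, histidine and serine. Kars averaged 3.57 CPM ± 2.99 in CPEB4 IP, against 392 CPM ± 108 in Input (SD, n = 4 each), a log2 fold change of -6.68 with an SE of 0.62 and an adjusted p of 4.67e-07. Hars fell by 6.41 (SE 0.69, adjusted p = 1.70e-06), with 0, 9, 6 and 5 counts in CPEB4 IP and 448, 629, 409 and 950 in Input. Sars (chromosome 3, 108424865 to 108426829) averaged 16.2 CPM ± 10.1 in CPEB4 IP, against 1032 CPM ± 339 in Input (SD, n = 4 each), and fell by 5.99 (SE 0.56, adjusted p = 4.51e-07). No CPEB4 IP library reached the lowest Input library for any of these genes.

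The other log2 fold changes past the threshold ran from -5.68 for Vars (valine) and -5.50 for Mars to -1.09 for Aars (alanine). Between them lay Cars (cysteine, -5.18), Rars (arginine, -4.93), Qars (glutamine, -3.79), Eprs (the fused glutamate and proline enzyme, -3.02), Gars (-2.89), Lars (leucine, -2.12), Farsa (a phenylalanine enzyme subunit, -2.02) and Nars (asparagine, -1.10). The other 6 cytosolic genes did not pass, with values from -1.94 for Farsb (the partner subunit of Farsa) to 1.20 for Tars. Tars had 34, 36, 60 and 38 counts in CPEB4 IP and 43, 30, 20 and 0 in Input, and its log2 fold change of 1.20 (SE 0.89, adjusted p = 0.271) was positive in every replicate. Wars (tryptophan) had the smallest difference, 0.07 (SE 0.40, adjusted p = 0.894), with 131 CPM ± 45.6 in CPEB4 IP against 125 CPM ± 38.5 in Input (SD, n = 4 each).

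The 8 genes of the multisynthetase complex (Eprs, Lars, Iars, Mars, Qars, Rars, Kars and Dars) had 6 falls and a median of -3.41. The other 12 cytosolic genes had 8 falls and a median of -1.98, and 21.6% of all tested rows fell. Except for Qars, the rows of the complex had 73 to 526 bases, and those of the other cytosolic genes 67 to 2460. Of all tested rows up to 626 bases, 55.2% fell. No test was made between these sets. The 5 cytosolic genes with the promoter letters searched above, Aars, Gars, Iars, Tars and Yars, had 2 falls (Gars and Aars) and a median of -0.92.

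Of the 9 mitochondrial genes tested besides Lars2, 3 fell (Fars2 -3.70, Vars2 -3.32 and Aars2 -3.29) and 1 rose. Of all tested rows, 21.6% fell and 31.6% rose. The median of the 9 genes was -0.72, against 0.56 for all tested rows. The 3 falls also had the CPEB4 IP libraries all below the Input libraries (20.1% of all rows). Iars2 (isoleucine) had 121 CPM ± 9.72 in CPEB4 IP against 63.4 CPM ± 53.5 in Input (SD, n = 4 each), for which the fit gave 0.93 (SE 0.58, adjusted p = 0.189). Wars2, Ears2, Nars2 and Mars2 had values from -0.92 to 1.12 and did not pass. The Nars2 row does not lie wholly inside the RefSeq span of its own gene, so its counts are uncertain.

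The gene that rose was Hars2, the mitochondrial histidine enzyme, in contrast to its cytosolic counterpart Hars. The rows differ in length, with 1433 bases for Hars2 and 352 for Hars. Hars2 had 33, 44, 27 and 23 counts in CPEB4 IP, 5, 2, 2 and 3 in IgG IP and 7, 0, 0 and 0 in Input. It was thus near absent from Input and present in every precipitate. The log2 fold change was 4.45 in CPEB4 IP over Input (SE 1.09, adjusted p = 0.00260) and 3.68 in IgG IP over Input (SE 1.14, adjusted p = 0.0165). CPEB4 IP over IgG IP gave 0.77 (SE 1.00, adjusted p = 0.698) and the libraries overlapped.

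**Figure D4:**
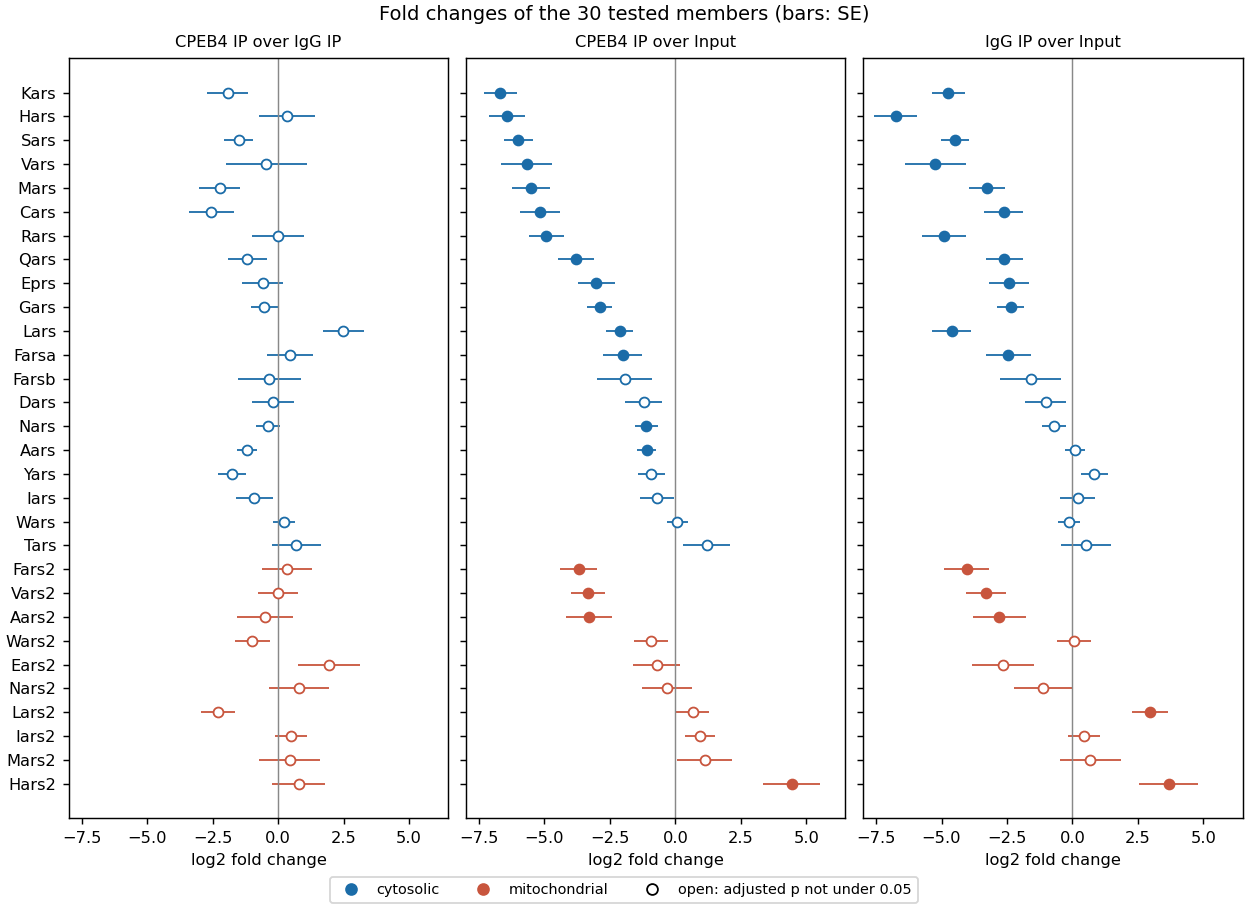
Log2 fold changes of the 30 tested synthetase genes with SE bars in CPEB4 IP over IgG IP, CPEB4 IP over Input and IgG IP over Input, cytosolic genes above and mitochondrial genes below, sorted by CPEB4 IP over Input within each class. Filled points have an adjusted p under 0.05; 18 genes are filled in CPEB4 IP over Input and 17 in IgG IP over Input with Lars2 counted, and none in CPEB4 IP over IgG IP.

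Cytosolic synthetase mRNAs were also lower in the IgG precipitate than in the poly(A)-selected Input. In IgG IP over Input, 12 of the 20 cytosolic genes fell and 0 rose, against 18.9% of all rows that fell and 21.1% that rose (39.9% either way), with a median of -2.44 against 0.27 for all rows. By unadjusted p under 0.05 the cytosolic count was 12 (47.7% of all rows), and DESeq2's Wald test gave 13 lower and 0 higher (24.1% and 20.1% of all rows). The IgG IP libraries lay below the Input libraries for 11 cytosolic genes and above them for 0 (18.3% and 19.4% of all rows). Of the 9 mitochondrial genes, 3 fell (Aars2, Fars2 and Vars2) and 1 rose (Hars2), with a median of -1.12. Farsa lost its fall with the replicate block (-2.55, adjusted p = 0.0526). Both comparisons with Input share the Input libraries, and their values stand side by side only. Kars had -6.68 in CPEB4 IP and -4.74 in IgG IP, Sars had -5.99 in CPEB4 IP and -4.48 in IgG IP, and Gars had -2.89 in CPEB4 IP and -2.36 in IgG IP. Other genes differed the other way: Lars had -2.12 in CPEB4 IP and -4.61 in IgG IP, Hars -6.41 and -6.75, and Farsa -2.02 and -2.46. The cytosolic medians were -2.51 in CPEB4 IP and -2.44 in IgG IP.

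Where a precipitate had almost no counts, a ratio of counts per scaled total replaces the fitted value. Hars had 3 counts over the 4 IgG IP libraries, a ratio to Input of 0.00932 (95% counting interval 0.00192 to 0.0273). Lars had 2, a ratio of 0.0413 (0.00499 to 0.150), and Rars had 2, a ratio of 0.0316 (0.00381 to 0.115). Vars had 1 count, a ratio of 0.0227 (0.000572 to 0.127). Each of these intervals lay below 1.

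Row length moved with these comparisons. Over all tested rows the Spearman correlation of row length with log2 fold change was 0.45 in CPEB4 IP over Input and 0.57 in IgG IP over Input, and over the 29 tested genes without Lars2 it was 0.52 and 0.62. In CPEB4 IP over IgG IP it was -0.02 over all rows and -0.02 over the 29 genes. The cytosolic rows were short, with a median of 355 bases against 1058 for the tested mitochondrial rows and 1354 for all tested rows. These correlations are across genes, which are not independent replicates.

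Set against rows of the same length bin, the values were these. All tested rows were cut into 4 bins of nearly equal size by length. In the shortest bin (up to 626 bases), which held 13 of the 20 cytosolic genes, 9 of them fell in CPEB4 IP over Input (69.2%), against 55.2% of all rows in that bin, and their median was -2.89 against -2.27. Lengths were not matched within that bin: its 16 synthetase rows had a median of 230.5 bases, against 324.5 for all its rows. In the next bin (627 to 1354 bases) 3 of 4 cytosolic genes fell, against 17.7% of all rows, with a median of -2.45 against 0.54. In the third bin (1355 to 2466 bases) Sars and Aars fell and Wars did not, against 9.02% of all rows. Of the mitochondrial genes, 2 of 3 in the shortest bin fell (66.7%, median -3.29), as did 1 of 2 in the next. In the third bin 0 of 3 fell and Hars2 rose, where 41.9% of all rows rose and the median of all rows was 1.28. The difference between the classes was not tested. How much of the falls goes with row length was not tested.

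**Figure D5:**
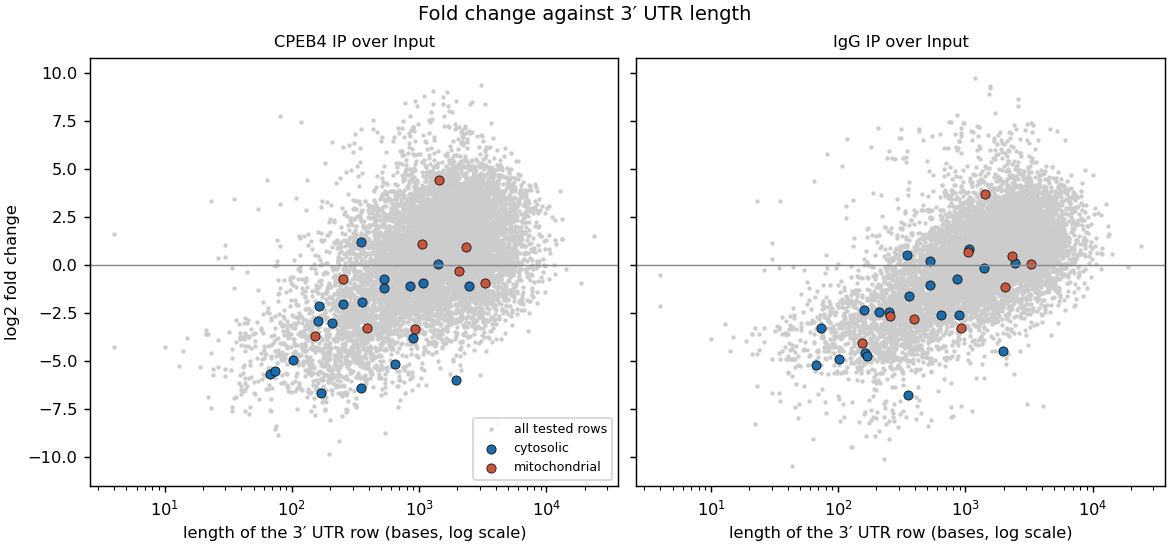
Log2 fold change in CPEB4 IP over Input and in IgG IP over Input against the length of the 3′ UTR row in bases (log axis). Grey points are the 9273 tested rows and coloured points the synthetase genes without Lars2; short rows lie lower in both panels (Spearman 0.45 and 0.57), and most cytosolic genes lie at the short end.

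CPEB4 IP over IgG IP, the comparison of both precipitates, called none of the synthetase genes. Of the 29 tested genes besides Lars2, 0 rose and 0 fell by edgeR's quasi-likelihood test, against 4.36% of all rows that rose and 1.00% that fell (5.36% either way). At an unadjusted p under 0.05 there were 7 cytosolic genes and 0 mitochondrial genes, and DESeq2's Wald test called 6 lower (Aars, Cars, Kars, Mars, Sars and Yars) and 0 higher. DESeq2 gave an adjusted p for only 18 of the 20 cytosolic genes and 5 of the 10 tested mitochondrial genes, Lars2 counted. Over all tested rows, 1850 of 9273 had an unadjusted p under 0.05, and DESeq2's Wald test called 5.54% lower and 5.47% higher. The median log2 fold change was -0.49 over the cytosolic genes, with 15 of 20 negative, and 0.44 over the mitochondrial genes, with 6 of 9 positive, against 0.19 over all tested rows. The sign of the mitochondrial median turned with library totals alone (-0.04) and with a mean count of at least 20 (-0.18). The IgG IP libraries were the shallowest, and 9 cytosolic and 12 mitochondrial genes had 10 counts or fewer there over all 4 libraries.

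The libraries were also compared without the test. The CPEB4 IP libraries lay below all IgG IP libraries for 5 cytosolic genes (Aars, Cars, Kars, Sars and Yars) and above them for 1 (Lars), against 5.73% and 22.4% of all rows, and no mitochondrial gene was separated among the 9 tested.

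The genes nearest to the threshold were Yars, Lars and Aars. Yars (chromosome 4, 129218542 to 129219607) had 18, 19, 21 and 17 counts in CPEB4 IP and 8, 6, 16 and 16 in IgG IP, or 23.1 CPM ± 2.12 and 78.3 CPM ± 16.6 (SD, n = 4 each). Its log2 fold change was -1.76 (SE 0.54, adjusted p = 0.0694), and its row overlaps C77080 on the opposite strand and an unnamed row. Aars (chromosome 8, 111055205 to 111057664) had 67, 67, 101 and 78 counts in CPEB4 IP and 16, 17, 42 and 61 in IgG IP, or 97.1 CPM ± 23.3 and 219 CPM ± 61.7. Its log2 fold change was -1.18 (SE 0.38, adjusted p = 0.0795), and its row overlaps the annotated gene Exosc6. Neither the Yars row nor the Aars row lies wholly inside the RefSeq span of its own gene, so their counts are uncertain. For both genes the CPM of every CPEB4 IP library was below that of every IgG IP library, although the deeper CPEB4 IP libraries held more counts.

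Lars, the cytosolic leucine enzyme, went the other way. It had 17, 18, 13 and 15 counts in CPEB4 IP, 0, 0, 1 and 1 in IgG IP and 106, 80, 93 and 87 in Input. The ratio of CPEB4 IP to IgG IP per scaled total was 5.65 (95% counting interval 1.50 to 47.7), and the fit gave an adjusted p of 0.0776. In CPM, every CPEB4 IP library lay above the IgG IP libraries and below the Input libraries. Ears2 had a ratio of 4.04 (1.05 to 34.4) on 2 counts in IgG IP, with overlapping libraries.

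Fitted on the 8 precipitate libraries alone, where 11 synthetase genes besides Lars2 passed the low-count filter, 5 fell: Yars (-2.16, adjusted p = 0.000503), Aars (-1.59, adjusted p = 0.000977), Iars (-1.35, adjusted p = 0.0155), Sars (-1.90, adjusted p = 0.0206) and the mitochondrial Wars2 (-1.42, adjusted p = 0.0210). In that fit 33.9% of all tested rows passed, 1136 higher and 938 lower. The direction for these 5 genes was the same in the fit of all 12 libraries, where none passed.

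In the authors' deposited table, the interaction contrast marked 1 cytosolic gene as higher and 7 as lower, by unadjusted p, and no mitochondrial gene besides Lars2. In the authors' deposited table, Aars had a log2 value of -1.54 with an adjusted p of 0.0340, the only cytosolic gene under the threshold, and Lars2 had -2.60 with an adjusted p of 0.0434. The authors' deposited table marked 433 of all 20586 rows as higher and 624 as lower. It gave an adjusted p for 4707 rows, of which 306 were under the threshold. Among the synthetase genes besides Lars2, 16 of 20 cytosolic and 4 of 15 mitochondrial genes had one.

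The 6 genes that failed the low-count filter were all mitochondrial. Cars2 had 42 counts over the 12 libraries, Pars2 63, Rars2 130, Sars2 40, Tars2 25 and Yars2 66. Sars2 had 0 counts in the CPEB4 IP libraries and Cars2 and Yars2 had 0 in the IgG IP libraries. Sars2 was at least 9.33-fold higher in Input than in CPEB4 IP, and Yars2 at least 2.47-fold and Cars2 at least 1.67-fold higher in Input than in IgG IP, each bound set by 3 counts summed over the group that had none. These bounds are on group sums, and the libraries overlapped for all 3 genes, since 1 Input library also had none: in Input, Sars2 had 3, 17, 0 and 18 counts, Yars2 30, 9, 0 and 17, and Cars2 7, 0, 17 and 14.

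Other genes of tRNA charging and use were measured in the same fit. Of 18 listed, 11 were tested, and in CPEB4 IP over IgG IP 0 passed by edgeR (3 at an unadjusted p under 0.05), with a median of -0.50. DESeq2's Wald test called 3 lower, Eef1a1, Gatc and Tufm, against 5.54% of all rows, and gave an adjusted p for 6 of the 11. In CPEB4 IP over Input 5 fell and 0 rose, among them Aimp2 (a scaffold of the multisynthetase complex, -3.58), Gatb (subunit of the mitochondrial transamidase, -2.94), Eef1a1 (the factor that brings charged tRNA to the ribosome, -3.83) and Tufm (its mitochondrial counterpart, -6.16), against 21.6% of all rows that fell and 31.6% that rose. In IgG IP over Input 5 fell and 0 rose, against 18.9% and 21.1% of all rows.

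The amino acid response list, 12 genes all tested, had 3 that rose in CPEB4 IP over IgG IP and 0 that fell by edgeR, against 4.36% of all rows higher and 1.00% lower. At an unadjusted p under 0.05 there were 5 (1850 of all 9273 rows), and DESeq2's Wald test called 3 higher and 2 lower (5.47% and 5.54% of all rows). Atf4, the transcription factor of that response, averaged 298 CPM ± 66.0 in CPEB4 IP, against 43.7 CPM ± 28.3 in IgG IP (SD, n = 4 each), and rose by 2.68 (SE 0.53, adjusted p = 0.00785). Sesn2, a leucine sensor, rose by 2.49 (SE 0.66, adjusted p = 0.0354), and Slc7a5, the large neutral amino acid transporter, rose by 1.41 (SE 0.39, adjusted p = 0.0439). None of the synthetase genes with the promoter letters of ATF4 passed in that comparison, with values of -1.76 to 0.69.

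Markers of other cell types were measured in the same fit. Of 6 fibroblast markers, all tested, Vim fell in CPEB4 IP over IgG IP (-1.69, adjusted p = 0.0248), and the list summed to 224 to 463 CPM in CPEB4 IP, 336 to 844 in IgG IP and 1107 to 2207 in Input. Of 6 macrophage markers, 3 were tested and 0 passed in that comparison by edgeR (0 at an unadjusted p under 0.05; 0 by DESeq2's Wald test, which gave an adjusted p for 2). The macrophage list summed to 71.1 to 161 CPM in CPEB4 IP, 87.9 to 232 in IgG IP and 54.1 to 423 in Input, and Adgre1 was at 0 counts in CPEB4 IP and Input. The higher fibroblast sum in Input was carried by Vim, at 41.8 CPM ± 12.0 (CPEB4 IP), 136 CPM ± 57.5 (IgG IP) and 1346 CPM ± 483 (Input; SD, n = 4 each). Pdgfrb went the other way, at 49.5 CPM ± 26.1 (CPEB4 IP), 51.5 CPM ± 23.3 (IgG IP) and 4.29 CPM ± 5.08 (Input), and rose against Input in CPEB4 IP (3.49, adjusted p = 0.00509) and in IgG IP (3.56, adjusted p = 0.00809). The part of these markers in the synthetase results was not tested.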

How the data were processed

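RNA precipitated with antibody to CPEB4, with IgG, and Input RNA was measured in 4 libraries each. The authors deposited whole-number read counts per 3′ UTR row (raw counts) in mm10 coordinates; the log2 normalised values they deposited were not used. The log2 fold changes and p-values of the authors' contrasts, deposited with missing cells and handled as a score, are quoted only where their table is named. The tools named in the submitters' processing notes are featureCounts, DESeq2 1.22.1, Bowtie2 2.2.2 and Bowtie 1.2.3; strand use and annotation release are not given in the sources used here.

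Tests used edgeR 4.0.16 under R 4.3.3 (quasi-likelihood test, one model of 12 libraries, Benjamini-Hochberg, threshold 0.05, prior count 0.125). filterByExpr (minimum count 10, minimum total 15) left 9273 rows. Totals and TMM factors left out Lars2. DESeq2 1.42.0 was an alternative. The fit was tested on simulated data. SE is the fold change over the square root of F. Rows without a symbol (697) held 0.507% to 2.23% of counts. All per-library columns were mapped. Groups came from sample titles.

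The members and gene lists were chosen with earlier results of these data known. Values in every library were given for Lars2 and the 3 cytosolic and 3 mitochondrial genes highest per kilobase; other genes are named where they passed or where they lay nearest a threshold, these last chosen after their values were seen. Replicate numbers were taken to pair libraries because the series describes each experiment as an Input, a CPEB4 IP and an IgG IP; same-numbered libraries' deviations correlated at 0.118 to 0.281 for both precipitates, 0.176 to 0.278 for CPEB4 IP with Input and 0.0345 to 0.143 for IgG IP with Input. Other normalizations, filters, tests, blocks, pairs of replicates and left-out libraries were the alternatives. Some promoter windows and one gene of the wider tRNA list are not reported here.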

Additional observations from a re-analysis of the deposited data

Results flagged for a closer look

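Single libraries stood apart from the other 3 of their group for Kars and Gars, among 33 groups of 4 libraries examined, where chance marks about 1 in 20. Kars was at 35.0 CPM in IgG IP replicate 2, against 8.70 to 12.9 CPM in the other IgG IP libraries. Gars was at 109.7 CPM in IgG IP replicate 3, against 21.7 to 26.4 CPM. These rest on 3 and 17 counts. In IgG IP replicate 3, Ears2 was at 12.9 CPM on 2 counts and Rars2 at 6.45 CPM on 1 count, against 0 counts in the other IgG IP libraries. With the others at 0 any count meets the measure used, so these 2 values do not show a library standing apart.

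The change of Lars2 against Input differed between replicates 3 and 4 and replicates 1 and 2, by a test of the difference. It was larger in replicates 3 and 4 by 3.01 on the log2 scale for CPEB4 IP over Input and by 3.44 for IgG IP over Input.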

How the results depend on the processing

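In CPEB4 IP over IgG IP, where 0 synthetase genes besides Lars2 passed, 2 passed with DESeq2 size factors, with a mean count of at least 20 and with a batch block (Aars and Yars each time), 3 with library totals alone, 5 in the 8 precipitate libraries and 6 by DESeq2's Wald test. Of all tested rows, 4.78%, 9.85%, 9.17%, 5.47%, 33.9% and 11% passed under these settings in the order given, against 5.36% in the main fit. Leaving out libraries gave 0 to 4, with 1 without Input replicate 1 (Yars) and 4 without Input replicate 3 (Aars, Cars, Mars and Yars). In IgG IP over Input, 16 became 9 in replicates 3 and 4 alone, while the share of all rows that passed went from 39.9% to 19.9%. Lars2 in CPEB4 IP over IgG IP passed with DESeq2 size factors and by DESeq2's Wald test (-2.56 in both), totals alone (-2.72), no filter (-2.17), a mean count of at least 20 (-2.61), the 8 libraries (-2.63), the replicate block (-2.25), the batch block (-2.23) and replicates 1 and 2 alone (-2.24). Leaving out libraries gave -2.90 to -1.77, passing only without Input replicate 3 (-2.38). Lars2 in CPEB4 IP over Input turned to -0.013 with DESeq2 size factors and by the Wald test, and to -1.47 in replicates 1 and 2 alone; it passed at 1.84 in replicates 3 and 4 alone, and leaving out libraries gave -0.28 to 1.22 (-0.05 without replicate 3, -0.28 without replicate 4, -0.11 without CPEB4 IP replicate 4). Its share difference without a replicate was -36.9 to -28.6 points in CPEB4 IP over IgG IP and 29.0 to 42.5 in IgG IP over Input, where 3 against 3 cannot go below an exact permutation p of 0.1, and -1.52 (without replicate 4) to 6.87 in CPEB4 IP over Input. The share differences of -33.0 and 35.8 points lost their call with exchange within replicate numbers, a replicate block. The causes were not tested.

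The 18 synthetase genes past the threshold in CPEB4 IP over Input kept their direction in 484 values under the alternatives. Of these values, 22 were no longer past it. The 16 such genes in IgG IP over Input kept theirs in 429 values, 36 of them no longer past it. Only genes that had passed were counted here. Among the others in CPEB4 IP over Input, Wars turned from 0.07 to -0.06 in the 8 libraries compared. Nars2 turned from -0.32 to 0.14 with the replicate block. Under TMM, DESeq2 size factors and totals alone, in this order, the median of all rows was 0.19, -0.12 and -0.33 in CPEB4 IP over IgG IP (404, 242 and 176 rows higher; 93, 201 and 331 lower). It was 0.56, -0.08 and 0.29 in CPEB4 IP over Input (2930, 2105 and 2571 higher; 1999, 2556 and 2178 lower) and 0.27, -0.04 and 0.53 in IgG IP over Input (1955, 1585 and 2284 higher; 1748, 2051 and 1547 lower). Besides Lars2, its share and Farsa, named in the report, the replicate block changed no other call of a synthetase gene. Genes of the other lists were not examined with that block. IgG IP depth limits what the precipitate comparison can show.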
